A study of Mus musculus with 6 samples.

Results

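The genes described here are the autoimmune regulator *Aire* and 9 genes of antigen presentation, namely *Ciita*, *Cd74*, *H2-Aa*, *H2-Ab1*, *H2-Eb1*, *B2m*, *H2-K1*, *H2-D1* and *Tapbp*. They were picked by symbol, and all 10 were found among the 12101 genes of the expression table. *Aire* was picked because it rose in these data, so its values are a description and carry no test. The measurements are RNA sequencing libraries of megakaryocyte-erythroid progenitors (MEPs), the bone marrow precursors of platelets and red cells, sorted from adult *Nanog*-tg mice of the CD-1 strain. These mice carry the doxycycline-dependent activator M2-rtTA at the Rosa26 locus together with a *Nanog* cassette under its control near Col1a1, and doxycycline (dox) therefore acts on the whole animal and not on MEPs alone. The 3 dox-treated libraries come from mice given dox in their drinking water for 5 days, and the 3 untreated libraries come from mice of the same genotype without dox, so that both groups carry both transgenes. No group of dox-treated mice without the *Nanog* cassette was analysed here, and an effect of dox itself cannot be told apart from one of *Nanog*. Whether each library is a separate animal or a pool is not stated in the sources used here, so p-values measure only the spread between these libraries.

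AIRE is a chromatin-associated transcriptional regulator best known from medullary thymic epithelial cells, where it switches on genes of peripheral tissues so that developing T cells meet those proteins. Class I molecules, made of a heavy chain such as H2-K or H2-D and the light chain beta-2-microglobulin, are carried by nearly all cells and show peptides made in the cytosol. Class II molecules are made by dendritic cells, B cells, macrophages and thymic epithelium under the coactivator CIITA, are guided by the invariant chain CD74, and exchange their peptide with the help of H2-DM, which H2-O restrains.

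The libraries held from 11264803 to 16153600 reads on the listed genes, so that 1 read stood for 0.0642 to 0.0910 CPM, the unit of read counts scaled to library size that is used here. The induced gene itself followed the labels, with *Nanog* at 1024 to 1460 CPM in the dox-treated libraries and at 0.0910 to 0.961 CPM in the untreated ones. All 9 MEP markers were listed and 0 were called, but 6 of them, the master erythroid factor *Gata1* included (149 to 207 CPM with dox and 220.3 to 245 CPM without), were lower in every dox-treated library, as 18.2% of all tested genes were. *Itga2b*, the megakaryocyte integrin chain, was the 1 marker that was higher in all of them (17.7% of all tested genes), at 319, 314 and 66.9 CPM with dox and at 24.1 to 39.2 CPM without (log2 fold change 2.52, adjusted p = 0.069 by limma); without dox-treated replicate 3, 1 of the 9 was called higher and 4 lower, beside 14.9% and 14% of all tested genes. Dox-treated replicate 3 stood apart from the other 2 dox-treated libraries. The limma fit of all 6 libraries called 555 of 12088 tested genes higher and 384 lower (adjusted p under 0.05), or 7.77% in all, whereas leaving that library out gave 1801 and 1687 such calls. The genes on which the results turn, and the counts of calls in each list, are therefore also given without it.

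*Aire* was nearly silent without dox and was read in every dox-treated library. It had 1570, 992 and 62 reads in dox-treated replicates 1, 2 and 3, and 1, 1 and 2 reads in the untreated ones. In CPM these are 115.6, 73.8 and 3.98 with dox, and 0.0778, 0.0739 and 0.182 without. The groups did not overlap, as for 17.7% of all tested genes in this direction, but the dox-treated libraries spread widely, with replicates 1 and 2 high and replicate 3 29.1-fold below the first and 18.6-fold below the second. Every untreated library lay under the floor of 3 reads, which is 0.273 CPM in the shallowest of them. Against that floor *Aire* was at least 424-fold higher in dox-treated replicate 1, at least 271-fold higher in replicate 2 and at least 14.6-fold higher in replicate 3.

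The induced transgene did not differ between the dox-treated libraries in the way *Aire* did. *Nanog* was at 1256, 1460 and 1024 CPM, a range within which replicate 3 was the lowest, while *Aire* had 9.20, 5.06 and 0.389 reads for each 100 reads of *Nanog*. Among all listed genes, *Aire* stood above 84.3% of them in dox-treated replicate 1, above 72.8% in replicate 2 and above 17.5% in replicate 3. In the untreated libraries it stood above at most 0.298% of the listed genes.

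**Figure D1:**
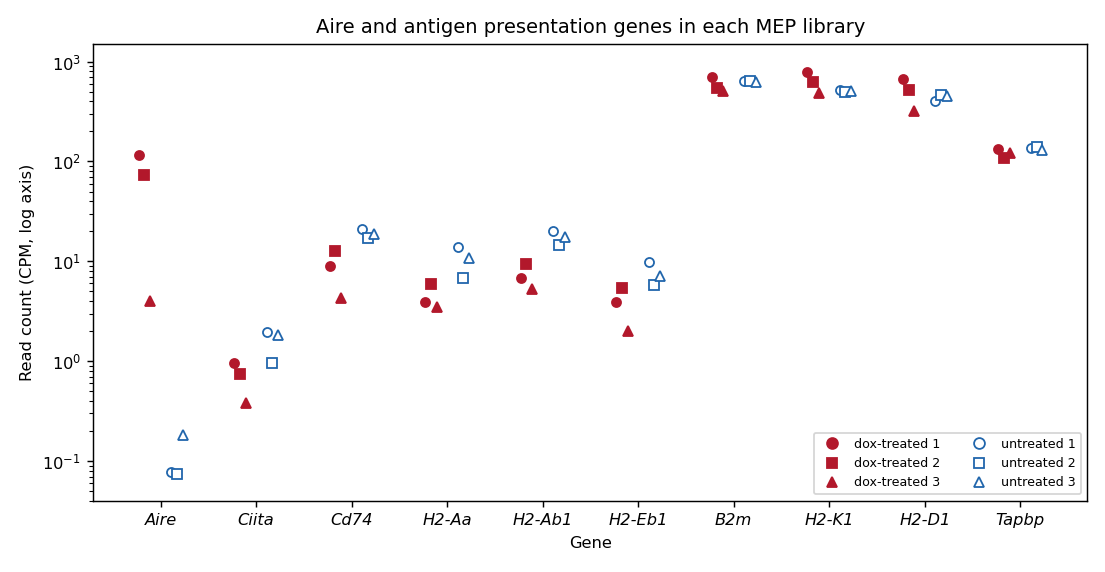
Read counts in CPM on a log axis for the 10 genes, with filled red symbols for the 3 dox-treated and open blue symbols for the 3 untreated MEP libraries, and circle, square and triangle for replicates 1, 2 and 3. *Aire* spans 3.98 to 115.6 CPM with dox against at most 0.182 CPM without, the class II genes and *Ciita* lie lower with dox, and the class I genes overlap.

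*Aire* lies on chromosome 10 (NCBIM37, chr10:77492767-77506355, minus strand). Its annotated span, introns included, overlaps 1664 bases of *Dnmt3l* on the other strand, and strand use is not given in the sources used here. *Dnmt3l* is not among the listed genes. No stretch of 50 bases in the longest *Aire* transcript occurs in another annotated protein-coding transcript, on either strand. The 250 bases before its RefSeq start on GRCm38.p6 are shown because *Aire* had the largest difference of the 10 genes. They lie at chr10:78043611-78043860, and the capitals mark GATTGG, the inverted CCAAT core that NF-Y can bind.

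*Aire*: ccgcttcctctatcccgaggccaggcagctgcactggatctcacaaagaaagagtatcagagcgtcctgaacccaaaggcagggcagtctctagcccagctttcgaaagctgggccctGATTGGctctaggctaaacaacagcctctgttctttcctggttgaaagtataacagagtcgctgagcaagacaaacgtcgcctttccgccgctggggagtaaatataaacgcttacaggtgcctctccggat

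These 250 bases hold GATTGG on the strand shown, and hold neither the interferon-gamma activated site TTCNNNGAA nor the interferon-stimulated element (TTTC and TTTC with any 2 bases between) nor the NF-kappaB site, searched on both strands. GATTGG is common, at 14.56% of the 32851 mouse promoters searched in the same way.

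Thymic epithelial markers were absent from the listed genes. None of its 9 markers, which include the thymic master factor *Foxn1*, the adhesion molecule *Epcam* and the keratin genes *Krt5* and *Krt8*, was listed. Of 15 tissue antigens known to depend on AIRE in the thymus, *Chrna1*, the alpha chain of the muscle acetylcholine receptor, was the only one listed. It had 0.736 to 1.79 CPM with dox and 1.24 to 2.29 CPM without (log2 fold change -0.69, adjusted p = 0.296 by limma). Genes outside the table may have been read too rarely to be listed, since the fewest reads of any listed gene were 47 over the 6 libraries.

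Genes that work with AIRE were already at measurable levels without dox. All 19 listed partners, which include DNA-dependent protein kinase (*Prkdc*) and the topoisomerases *Top1* and *Top2a*, were tested, and 0 passed the threshold, where 4.59% of all tested genes were called higher and 3.18% lower. At an unadjusted p under 0.05 there was 1 partner in each direction, beside 15.6% of all tested genes higher and 13.6% lower. Their median log2 fold change was -0.07, beside -0.03 over all tested genes. The 5 with the smallest p were *Top1* (-0.44, adjusted p = 0.101), the kinase *Hipk2* (0.66, 0.115), the RNA-binding protein *Hnrnpl* (-0.22, 0.185), the P-TEFb inhibitor *Hexim1* (0.25, 0.237) and the corepressor *Daxx* (-0.22, 0.262), all by limma. Without dox-treated replicate 3, 2 partners were called higher and 3 lower, where 14.9% and 14% of all tested genes were.

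The 8 relatives that share a SAND or SP100-type domain with AIRE gave 0 calls as well, with 2 higher and 0 lower at an unadjusted p under 0.05 (15.6% and 13.6% of all tested genes) and a median log2 fold change of 0.41. *Skil*, a TGF-beta corepressor, was nearest to the threshold at 20.6 ± 3.30 CPM with dox and 12.5 ± 1.78 CPM without (SD, n = 3 libraries each; log2 fold change 0.71, adjusted p = 0.062 by limma), and its groups did not overlap. The nuclear body proteins *Sp140* (0.38, adjusted p = 0.106), *Sp110* (0.55, 0.248) and *Sp100* (0.44, 0.299) and the corepressor *Ski* (0.52, 0.202) followed. Without dox-treated replicate 3, 3 of the 8 were called higher, beside 14.9% of all tested genes, and *Skil* was 1 of them (0.85, adjusted p = 0.020 by limma).

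Of 16 genes of the TNF receptor and NF-kappaB route that turns on *Aire* in the thymus, 13 were listed and 0 were called. *Tnfrsf11a*, *Tnfsf11* and *Cd40*, which encode RANK, its ligand and CD40, were not among the listed genes. The lymphotoxin beta receptor *Ltbr* was at 19.4 ± 4.23 CPM with dox and 11.9 ± 1.70 CPM without (log2 fold change 0.69, adjusted p = 0.088 by limma). The kinase *Map3k14*, which relays that signal, was at 8.72 ± 4.65 and 2.82 ± 0.620 CPM (1.45, adjusted p = 0.113 by limma), and the noncanonical subunit *Relb* at 5.75 ± 2.48 and 2.39 ± 0.593 CPM (1.17, adjusted p = 0.121 by limma). The methyltransferase *Prmt5* (-0.40, adjusted p = 0.093) and the subunit *Nfkb1* (0.27, adjusted p = 0.128) completed the 5 with the smallest p. At an unadjusted p under 0.05, 4 of the 13 were higher and 1 was lower, where 15.6% and 13.6% of all tested genes were. Without dox-treated replicate 3 the adjusted threshold was passed by 3 higher genes, *Ltbr* (0.83, adjusted p = 0.032), *Map3k14* (1.99, 0.011) and *Relb* (1.59, 0.017), and by *Prmt5* as the lower one (-0.45, 0.045), beside 14.9% and 14% of all tested genes.

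Among 9986 other genes that averaged 5 CPM or more, the profiles most like that of *Aire* over the 6 libraries belonged to *Zbtb4*, *Polk*, *Parp6*, *Kcnj5* and *Dmxl2*. Pearson's r on the log2 scale was 0.999 for *Zbtb4* and 0.997 for *Dmxl2*, the first and the last of them. The 6 points are the same libraries for every gene, and the choice was made on r itself, so r is given with no test. *Kcnj5*, which encodes a G-protein-gated potassium channel, was at 37.0, 33.9 and 4.68 CPM with dox and at 0.778 to 1.09 CPM without. It showed the same order as *Aire*, with replicates 1 and 2 high, replicate 3 between and the untreated libraries lowest. *Parp6* had that order with a far smaller range, from 14.0 to 21.4 CPM.

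**Figure D2:**
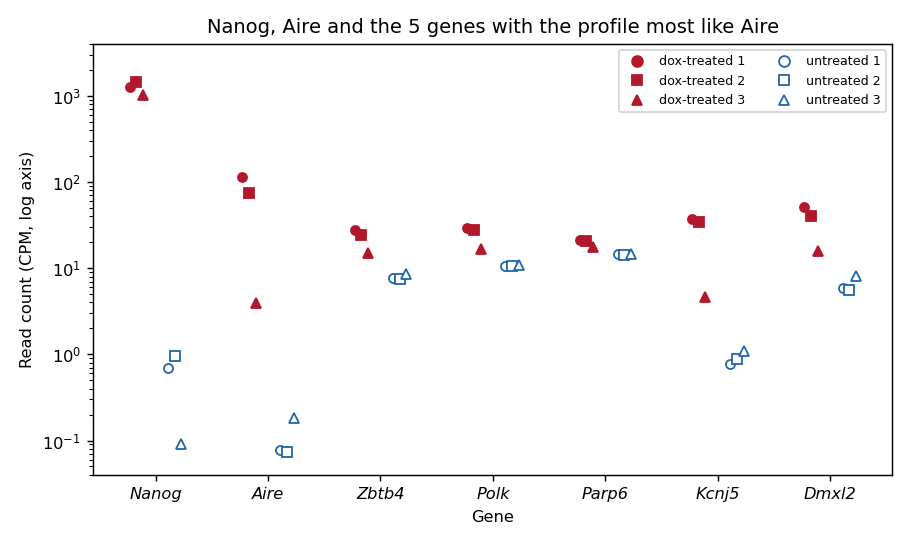
Read counts in CPM on a log axis for *Nanog*, *Aire* and the 5 genes with the highest Pearson r to *Aire*, by library, with symbols as in the plot of the 10 genes. *Nanog* is close in the 3 dox-treated libraries (1024 to 1460 CPM), whereas *Aire* and *Kcnj5* (4.68 to 37.0 CPM) are lowest in dox-treated replicate 3.

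The classical class II genes and their invariant chain had lower values in every dox-treated library than in any untreated one. The differences were of similar size, and 1 of the 4 passed the threshold. *H2-Ab1*, the beta chain of I-A, had 93, 125 and 83 reads in the dox-treated libraries and 260, 196 and 194 in the untreated ones, or 6.85, 9.31 and 5.33 CPM against 20.2, 14.5 and 17.6 CPM. All dox-treated libraries lay below all untreated ones, as they did for 18.2% of all tested genes. *H2-Ab1* fell by 1.31 on the log2 scale (SE 0.24, adjusted p = 0.035 by limma), and its log2 fold change was -1.11 without dox-treated replicate 3 (adjusted p = 0.024). It was the only one of the 8 tested genes other than *Aire* to be called in either direction, where 3.18% of all tested genes were called lower. Its call was lost without any 1 of dox-treated replicate 1 and the 3 untreated replicates (adjusted p from 0.073 to 0.113, log2 fold change from -1.43 to -1.19), and with library sizes taken from the reads on listed genes (adjusted p = 0.058).

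*Cd74*, whose product holds class II molecules in the secretory route, had 123, 169 and 67 reads with dox and 273, 229 and 206 without. In CPM it was at 9.06, 12.6 and 4.30 against 21.2, 16.9 and 18.7, with dox-treated replicate 3 the lowest and no overlap. Its log2 fold change was -1.26 (SE 0.39, adjusted p = 0.1004 by limma) with all libraries. Without dox-treated replicate 3 it was -0.82, a smaller difference with a smaller spread that passed the threshold (adjusted p = 0.035).

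*H2-Aa*, the alpha chain of I-A, had 53, 79 and 54 reads with dox and 178, 93 and 118 without, which is 3.90, 5.88 and 3.47 CPM against 13.8, 6.87 and 10.7 CPM. Its groups did not overlap, and untreated replicate 2 came nearest to the dox-treated libraries. The log2 fold change was -1.22 (SE 0.32, adjusted p = 0.072 by limma), and -1.07 without dox-treated replicate 3 (adjusted p = 0.079).

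*H2-Eb1*, the beta chain of I-E, had 53, 73 and 31 reads with dox and 128, 78 and 78 without, or 3.90, 5.43 and 1.99 CPM against 9.95, 5.76 and 7.10 CPM. The groups were separated by the narrow gap between dox-treated replicate 2 and untreated replicate 2. The log2 fold change was -1.08 (SE 0.40, adjusted p = 0.142 by limma), and -0.68 without dox-treated replicate 3 (adjusted p = 0.125).

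*Ciita*, the coactivator on which class II transcription depends, was close to the limit of what these libraries can show. It had 13, 10 and 6 reads with dox and 25, 13 and 20 without, or 0.957, 0.744 and 0.385 CPM against 1.94, 0.961 and 1.82 CPM. Dox-treated replicate 1 and untreated replicate 2 differed by less than 1 read after scaling, although no dox-treated library was above an untreated one. *Ciita* (chr16:10480237-10527657 on NCBIM37) was the gene of the 10 that did not reach 1 CPM in 3 libraries and was left out of the test. In the fit with no filter its log2 fold change was -1.17 (SE 0.41, adjusted p = 0.128 by limma).

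Summed over *Cd74*, *H2-Aa*, *H2-Ab1* and *H2-Eb1*, class II transcripts came to 23.7, 33.2 and 15.1 CPM with dox and 65.2, 44.0 and 54.2 CPM without. The untreated mean was 2.27-fold the dox-treated mean with all libraries and 1.92-fold without dox-treated replicate 3. On NCBIM37 the class II chain genes are neighbours on chromosome 17, at chr17:34400154-34406363 for *H2-Ab1*, chr17:34406276-34424772 for *H2-Aa* and chr17:34442828-34453144 for *H2-Eb1*. The spans of the first 2 overlap by 88 bases on opposite strands. No 50-base stretch of the longest transcript of either occurs in another protein-coding transcript, on either strand. The 4 genes moved together between libraries, with pairwise Pearson r from 0.896 to 0.979 over the 6 libraries, which share depth and group. Among 9983 other genes the closest to their mean were *Irf3*, *Ticam1*, *App*, *Gpc1* and *Actn1* (r from 0.980 to 0.993). *Gpc1*, a heparan sulphate proteoglycan of the cell surface, was at 3.76, 6.18 and 1.93 CPM with dox and 40.0, 19.2 and 25.0 CPM without, so that in each group its highest and lowest libraries were those of the class II genes. In a bulk library fewer cells of a type and less RNA per cell cannot be told apart.

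Markers of granulocyte-monocyte progenitors were lower with dox, and those of monocytes were lower for 4 of 7 and overlapped for the others. Of 6 listed mast cell markers, 4 were higher in every dox-treated library and 1 lower, beside 17.7% and 18.2% of all tested genes. All 9 markers of granulocyte-monocyte progenitors had every dox-treated library below every untreated one (18.2% of all tested genes). Of the 9, 8 were called lower (3.18% of all tested genes). The 9 markers summed to 490 to 722 CPM with dox and 2290 to 5310 CPM without. They include *Mpo*, *Elane*, *Prtn3* and *Ctsg*, which encode granule proteins of early neutrophils. Of 9 markers of monocytes and macrophages 7 were listed, at 24.1 to 29.9 CPM in sum with dox and 97.8 to 213 CPM without, with *Csf1r* and *Ly6c2* called lower, *Ly86* and *Ccr2* lower in every dox-treated library (-1.32 and -1.62 on the log2 scale, adjusted p = 0.065 and 0.075 by limma), *Cd68* and *Emr1* at log2 fold changes of 0.04 and -0.004, *C1qa* at 1.11 (1.03 to 1.71 against 0.443 to 1.09 CPM, adjusted p = 0.118 by limma), and *Fcgr1* among those not listed.

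Of 10 dendritic cell markers 5 were listed, summing to 46.7 to 70.6 CPM with dox and 86.0 to 123 CPM without. *Zbtb46* and *Irf8* were called lower (3.18% of all tested genes) and *Clec10a* higher (4.59%). The lower sum came mainly from *Zbtb46* (21.5 to 39.0 CPM with dox and 55.7 to 58.5 CPM without) and *Irf8* (5.21 to 8.03 against 20.2 to 44.9 CPM). It is therefore not a level of dendritic cells. *Flt3* was at 15.7 to 32.3 CPM with dox and 5.84 to 18.3 CPM without (log2 fold change 0.94, adjusted p = 0.252 by limma). *Clec10a* was at 1.99 to 4.86 CPM with dox and at most 0.622 CPM without, and was tested through its dox-treated libraries alone. The defining *Itgax* had at most 1.56 CPM in any library, and *Clec9a*, *Xcr1*, *Siglech*, *Cd209a* and *Batf3* were not listed. Of 10 B cell markers 7 were listed, and their sum overlapped between groups at 22.1 to 57.6 CPM with dox and 39.8 to 52.7 CPM without, with *Blnk* called lower and *Cd79a* and *Cd79b* at adjusted p of 0.858 and 0.488 (limma). *Ms4a1*, *Pax5* and *Cd22* were not listed. Of 7 T cell markers *Lck* and *Thy1* were listed and neither was called. Of 8 mast cell and basophil markers 6 were listed. Their sums overlapped, at 561 to 760 CPM with dox and 402 to 632 CPM without. *Kit*, which is also an MEP marker, was the largest part of that sum in every library. Of the 6, 3 were called higher, beside 4.59% of all tested genes, and 0 lower. The 3 called were *Cpa3* and *Ms4a2* (log2 fold change 2.93 and 2.76) and *Slc18a2* (42.7 to 73.0 CPM with dox and 14.7 to 23.6 CPM without). *Gata2* was at 1.46 (adjusted p = 0.070 by limma), and these 4 were higher in every dox-treated library (17.7% of all tested genes). The other members were at negative log2 fold changes, -0.39 for *Kit* (304 to 323 against 327 to 486 CPM) and -0.93 for *Mcpt8* (0.578 to 1.62 against 1.40 to 2.72 CPM). Leaving out dox-treated replicate 3, the calls were 8 lower for the granulocyte-monocyte progenitor list, 2 lower for the monocyte list, 1 higher and 2 lower for the dendritic cell list, 1 lower for the B cell list and 4 higher for the mast cell list, where 14.9% and 14% of all tested genes were called higher and lower. According to the study, marrow precursors were sorted from cells that were lineage-negative, cKit+ and Sca1-, a gate that is meant to set mature blood cells aside. The part of such cells in the class II result was not tested.

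**Figure D3:**
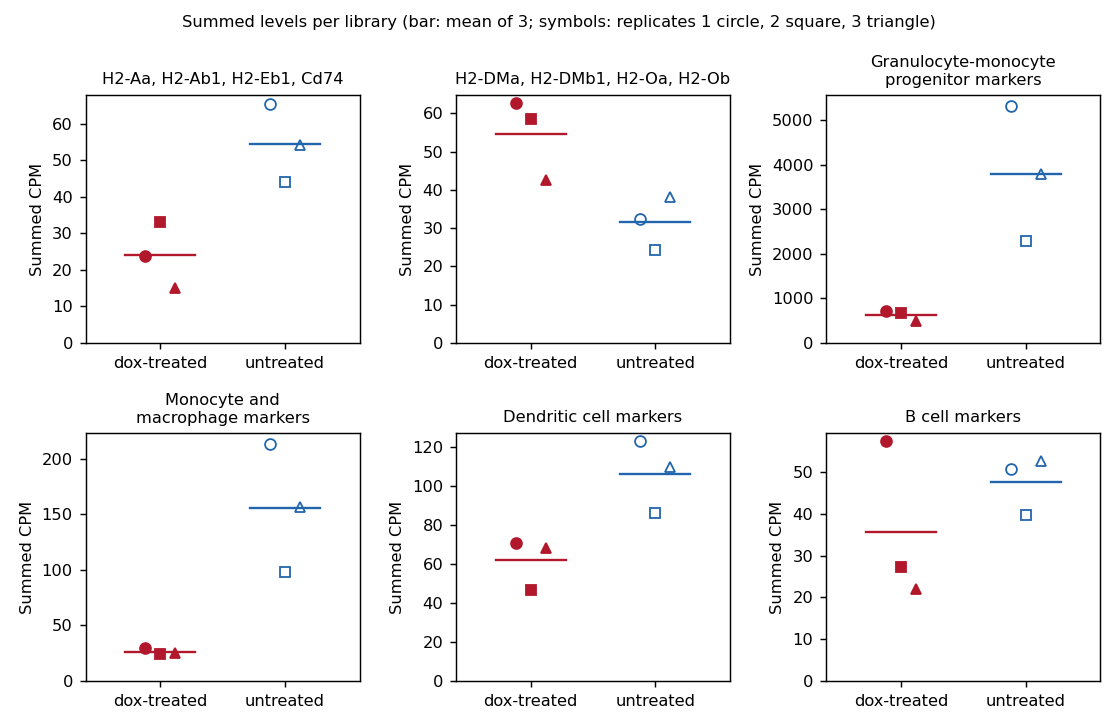
Summed CPM per library for the class II genes, 4 of the 5 class II peptide-exchange genes and 4 lists of cell markers, with filled red symbols for dox-treated and open blue symbols for untreated libraries and a bar at the mean of 3. The sums of the class II genes, the granulocyte-monocyte progenitor markers, the monocyte markers and the dendritic cell markers are lower in all dox-treated libraries, though not every marker in the last 2 lists is, the sum of *H2-DMa*, *H2-DMb1*, *H2-Oa* and *H2-Ob*, which leaves out *H2-DMb2*, is higher (42.6 to 62.8 against 24.3 to 38.2 CPM), and the B cell sums overlap.

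Among the 5 genes that edit the class II peptide 1 was called higher and 1 lower, beside 4.59% and 3.18% of all tested genes. *H2-Oa*, the alpha chain of the H2-O inhibitor, had 123, 155 and 88 reads with dox and 38, 24 and 31 without, and its groups did not overlap. It rose by 1.76 on the log2 scale (SE 0.32, adjusted p = 0.035 by limma), or 2.04 without dox-treated replicate 3 (adjusted p = 0.014). For each 100 reads of *H2-Ab1* there were 132, 124 and 106 reads of *H2-Oa* in the dox-treated libraries and 14.6, 12.2 and 16.0 in the untreated ones. This ratio held its level within each group, dox-treated replicate 3 included. The 2 genes were called in opposite directions in these same libraries, so the groups had to differ in it. The *H2-Oa* call was also lost without any 1 library other than dox-treated replicate 3 (adjusted p from 0.081 to 0.114).

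The partner chain *H2-Ob* overlapped between groups, at 8.18 ± 1.49 CPM with dox and 6.54 ± 2.79 CPM without (log2 fold change 0.42, 95% confidence interval -0.52 to 1.36, adjusted p = 0.498 by limma). *H2-DMa*, the alpha chain of the peptide exchanger H2-DM, had 442, 364 and 349 reads with dox and 202, 199 and 240 without. All 3 dox-treated libraries were above the untreated ones in CPM, at a log2 fold change of 0.65 (SE 0.21, adjusted p = 0.108 by limma), or 0.79 without dox-treated replicate 3 (adjusted p = 0.049).

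The 2 copies of the H2-DM beta chain had log2 fold changes of opposite sign, but *H2-DMb1* overlapped between groups. *H2-DMb1* had 168, 180 and 83 reads with dox and 72, 61 and 58 without (log2 fold change 0.90, SE 0.37, adjusted p = 0.168 by limma, and 1.33, adjusted p = 0.0071, without dox-treated replicate 3). *H2-DMb2* had 8, 2 and 3 reads with dox and 23, 20 and 16 without, with a log2 fold change of -2.44 (SE 0.46, adjusted p = 0.036 by limma). It was below 1 CPM in every dox-treated library and was tested through its untreated libraries alone, so the call supports no direction here. That call was lost without dox-treated replicate 2 or any 1 untreated library (adjusted p from 0.105 to 0.112). These copies share 27.1% and 29.3% of their 50-base stretches with other protein-coding transcripts, each mostly with the other copy, so the division of reads between them is uncertain.

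Promoter windows of 100 bases are printed to set the promoters of class II chains and peptide-exchange genes with different directions side by side. The capitals mark GATTGG and, where it lies at most 50 bases before that core on the same strand, GCAAC, letters found in the X box to which the RFX factors bind. This second search was chosen after the sequences had been seen. The windows, from RefSeq on GRCm38.p6 and written along each gene, are chr17:34287843-34287942 (minus strand) for *H2-Aa*, chr17:34305737-34305836 for *H2-Eb1*, chr17:34092265-34092364 for *H2-Oa*, chr17:34238777-34238876 for *H2-Ob*, chr17:34153059-34153158 for *H2-DMb1* and chr17:34145088-34145187 for *H2-DMb2*.

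*H2-Aa*: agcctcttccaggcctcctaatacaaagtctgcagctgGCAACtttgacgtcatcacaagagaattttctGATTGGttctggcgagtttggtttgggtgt

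*H2-Eb1*: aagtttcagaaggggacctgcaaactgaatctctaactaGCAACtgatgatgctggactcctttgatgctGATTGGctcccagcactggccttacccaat

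*H2-Oa*: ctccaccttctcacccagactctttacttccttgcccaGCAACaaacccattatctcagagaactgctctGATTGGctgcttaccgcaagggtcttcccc

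*H2-Ob*: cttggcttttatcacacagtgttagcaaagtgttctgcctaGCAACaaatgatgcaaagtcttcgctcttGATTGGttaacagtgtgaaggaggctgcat

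*H2-DMb1*: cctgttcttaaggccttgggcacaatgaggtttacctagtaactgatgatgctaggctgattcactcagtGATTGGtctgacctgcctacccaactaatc

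*H2-DMb2*: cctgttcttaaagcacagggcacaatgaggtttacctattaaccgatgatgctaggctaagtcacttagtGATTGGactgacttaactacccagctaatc

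In *H2-Aa*, *H2-Eb1*, *H2-Oa* and *H2-Ob* the gap between GCAAC and GATTGG was 27, 26, 27 and 24 bases, and 0.673% of all promoters searched held such a pair. *H2-Aa* and *H2-Eb1*, which had lower values with dox but were not called, and *H2-Oa*, which was called higher, all carry it. Both H2-DM beta copies hold GATTGG and not the GCAAC letters within that distance. A match to these letters is a description and not a bound site. Of the 10 genes, 7 had an entry in the promoter table that was used, and GATTGG was found in 6 of them, all but *Tapbp*. The NF-kappaB site was found in *B2m*, *H2-Aa*, *H2-D1* and *H2-K1*, beside 3.899% of all promoters, and the interferon-stimulated element in *B2m* alone of the 7, beside 2.977%. The interferon-gamma activated site was found in 0 of them, beside 7.02% of all promoters.

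Across the whole class II pathway the chains and the machinery around them did not share 1 direction. Of 27 genes listed for the pathway 22 were in the table and 21 were tested. Of these, 1 was called higher (*H2-Oa*), 2 were called lower (*H2-Ab1* and *H2-DMb2*) and 18 did not pass, where 4.59% and 3.18% of all tested genes were called higher and lower. *H2-DMb2* reached the filter of 1 CPM in 3 libraries only in the untreated group. The median log2 fold change was -0.06, beside -0.03 over all tested genes. Without dox-treated replicate 3, 4 were called higher and 4 lower, where 14.9% and 14% of all tested genes were. The regulators of the X and Y boxes, *Rfx5*, *Rfxap*, *Rfxank*, *Nfya*, *Nfyb*, *Nfyc* and *Creb1*, lay between -0.18 and 0.20 on the log2 scale, with adjusted p from 0.326 to 0.856 (limma). *Lgmn*, an asparagine endopeptidase that cuts the invariant chain and antigens, had 233, 220 and 17 reads with dox and 13, 9 and 20 without. It was high in dox-treated replicates 1 and 2 and within the untreated range in replicate 3 once scaled (log2 fold change 2.62, adjusted p = 0.186 by limma). Without dox-treated replicate 3 it was called higher (3.92, adjusted p = 0.0093).

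**Figure D4:**
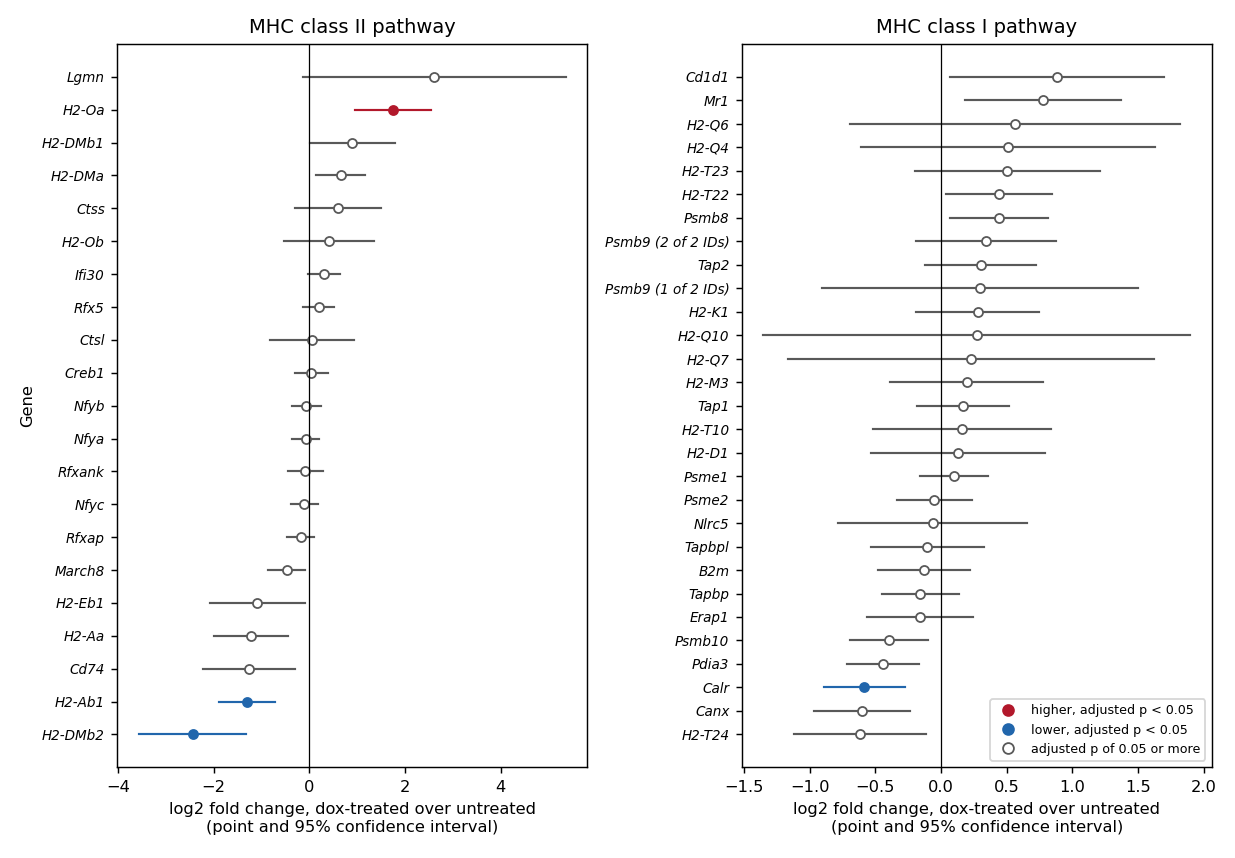
Log2 fold change of dox-treated over untreated MEPs with its 95% confidence interval for the 21 tested entries of the class II list and the 29 of the class I list, ordered by value and each named on the vertical axis. Filled symbols passed an adjusted p of 0.05 (limma): *H2-Oa* higher, *H2-Ab1*, *H2-DMb2* and *Calr* lower. *H2-DMb2* was tested through its untreated libraries alone, so its call supports no direction.

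The class I molecules themselves did not pass the test in either direction. Their genes lie at chr2:121973422-121978819 (*B2m*), chr17:34132962-34137278 (*H2-K1*), chr17:35399675-35404444 (*H2-D1*) and chr17:34052844-34066235 (*Tapbp*) on NCBIM37. The *B2m* span lies within that of *Patl2* on the other strand, and *Tapbp* overlaps 3421 bases of *Zbtb22* on its own strand. These are whole gene spans, introns included. No 50-base stretch of the longest *B2m* transcript occurs in another protein-coding transcript on either strand, and 0.879% of those of *Tapbp* do. *B2m*, the light chain, had 9414, 7301 and 7918 reads with dox and 8174, 8668 and 6785 without, or 693, 544 and 508 CPM against 636, 641 and 617 CPM. Dox-treated replicate 1 was above and the other dox-treated libraries were below all untreated ones. The log2 fold change was -0.13 (95% confidence interval -0.48 to 0.22, adjusted p = 0.566 by limma), and -0.04 without dox-treated replicate 3.

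*H2-K1*, the K heavy chain, had 10740, 8339 and 7531 reads with dox and 6677, 6752 and 5639 without, or 791, 621 and 483 CPM against 519, 499 and 513 CPM. Replicates 1 and 2 were above and replicate 3 below all untreated libraries. The log2 fold change was 0.28 (95% confidence interval -0.19 to 0.74, adjusted p = 0.366 by limma), and 0.46 without dox-treated replicate 3 (adjusted p = 0.056).

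*H2-D1*, the D heavy chain, had 8987, 6927 and 5006 reads with dox and 5138, 6263 and 4998 without, or 662, 516 and 321 CPM against 400, 463 and 455 CPM. It repeated the order seen for *H2-K1*, with replicate 3 below and the others above the untreated libraries. The log2 fold change was 0.13 (95% confidence interval -0.54 to 0.79, adjusted p = 0.777 by limma), and 0.42 without dox-treated replicate 3 (adjusted p = 0.091). *H2-K1* and *H2-D1* share 8.87% and 14.3% of their 50-base stretches with other transcripts, mainly of other class I genes, so reads in those stretches cannot be given to 1 gene with certainty.

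*Tapbp* encodes tapasin, which holds empty class I molecules at the peptide transporter. It had 1829, 1443 and 1905 reads with dox and 1746, 1883 and 1433 without, or 135, 107 and 122 CPM against 136, 139 and 130.4 CPM. Dox-treated replicate 1 lay among the untreated libraries and the other 2 below them, at a log2 fold change of -0.16 (95% confidence interval -0.45 to 0.13, adjusted p = 0.408 by limma), or -0.17 without dox-treated replicate 3. For these 4 class I genes the intervals lay within 1 log2 unit of 0, and exact permutation over the 6 libraries (two-sided, smallest possible p = 0.1) gave p = 0.4 for *B2m*, 0.4 for *H2-K1*, 0.7 for *H2-D1* and 0.2 for *Tapbp*.

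In the wider class I pathway all 28 genes were listed, 1 of them (*Psmb9*) under 2 identifiers. Of the 29 entries 0 were called higher and 1 lower, with 4 higher and 5 lower at an unadjusted p under 0.05, and a median log2 fold change of 0.17. Over all tested genes these shares were 4.59% and 3.18%, and 15.6% and 13.6%. When dox-treated replicate 3 was left out, 7 entries were called higher and 4 lower, where 14.9% and 14% of all tested genes were. The call was *Calr*. It encodes calreticulin, a folding chaperone of the endoplasmic reticulum that serves class I and many other glycoproteins. It was at 643 ± 61.3 CPM with dox and 963 ± 88.5 CPM without, and it fell by 0.58 on the log2 scale (SE 0.13, adjusted p = 0.048 by limma), with -0.66 without dox-treated replicate 3. The call was lost without any 1 of the other 5 libraries (adjusted p from 0.116 to 0.171) and with library sizes from the reads on listed genes (adjusted p = 0.053). The chaperones *Canx* (646 ± 104 against 973 ± 82.7 CPM, log2 fold change -0.60, adjusted p = 0.066 by limma) and *Pdia3* (415 ± 8.73 against 566 ± 54.6 CPM, -0.44, adjusted p = 0.068 by limma) lay below every untreated library as well, and were called lower without dox-treated replicate 3 (-0.73, adjusted p = 0.016, and -0.44, adjusted p = 0.046). The proteasome subunit *Psmb10* (-0.40, adjusted p = 0.094) and the nonclassical heavy chain *Mr1* (0.78, 0.101) completed the 5 with the smallest p. The transporter genes *Tap1* and *Tap2* overlapped between groups (0.17 and 0.30, adjusted p = 0.471 and 0.290).

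The heavy chains of the Q region separated the dox-treated libraries from each other rather than the groups. *H2-Q4*, *H2-Q6*, *H2-Q7* and *H2-Q10* together came to 689, 481 and 166 CPM with dox and to 243, 301 and 332 CPM without. Replicates 1 and 2 were above and replicate 3 was below every untreated library. None of the 4 was called with all libraries, and *H2-Q4*, *H2-Q6* and *H2-Q10* were called higher without replicate 3 (log2 fold change 1.03, 1.15 and 1.06, adjusted p = 0.025, 0.026 and 0.023 by limma). They share from 7.42% to 27.0% of their 50-base stretches with other protein-coding transcripts, some of them outside these 4 genes, so that the single values and the sum are both uncertain.

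Upstream genes of the interferon and class II route gave 1 call among 10 tested, beside 7.77% of all tested genes in either direction, and 1 higher and 1 lower without dox-treated replicate 3, where 14.9% and 14% of all tested genes were. *Irf8*, a factor of monocyte and dendritic cell development that also stands on the dendritic cell and granulocyte-monocyte progenitor marker lists, had 109, 70 and 84 reads with dox and 577, 273 and 420 without. All dox-treated libraries lay far below, and *Irf8* fell by 2.41 on the log2 scale (SE 0.34, adjusted p = 0.018 by limma), with -2.33 without dox-treated replicate 3 (adjusted p = 0.022). It was not called without dox-treated replicate 1 or 2 or untreated replicate 1 or 3 (adjusted p from 0.0501 to 0.0783). *Socs3*, a feedback inhibitor of cytokine signalling, was at 2.47 ± 0.776 CPM with dox and 0.991 ± 0.387 CPM without (log2 fold change 1.32, adjusted p = 0.084 by limma). The receptor chain *Ifngr1* (-0.50, adjusted p = 0.215 by limma) and *Irf1* (0.50, adjusted p = 0.411 by limma) overlapped between groups. *Irf4* and *Socs1* were not among the listed genes.

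Set against the length of the longest annotated transcript, the 10 genes covered a wide span of levels. With dox the order in CPM per kilobase was *B2m* (676 ± 114), *H2-K1* (337 ± 82.2), *H2-D1* (238 ± 81.3), *Tapbp* (42.0 ± 4.71), *Aire* (21.7 ± 19.0), *Cd74* (6.13 ± 2.95), *H2-Ab1* (5.91 ± 1.66), *H2-Aa* (3.90 ± 1.137), *H2-Eb1* (3.20 ± 1.47) and *Ciita* (0.131 ± 0.0547), each a mean ± SD of 3 libraries. The levels of *H2-K1* and *H2-D1*, of *Aire* and both its neighbours *Tapbp* and *Cd74*, and those next to each other from *Cd74* to *H2-Eb1* were not separated beyond their spread. On this scale *Aire* was above *Cd74* and the class II chains in replicates 1 and 2 and below all of them in replicate 3. Without dox *Aire* was last at 0.0375 ± 0.0207, below *Ciita* at 0.298 ± 0.101, and *H2-Ab1* (14.4 ± 2.37) and *Cd74* (13.4 ± 1.53) led the class II genes.

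Of the 8 tested genes other than *Aire*, 0 were called higher and 1 lower, and their median log2 fold change was -0.62, or -0.42 without dox-treated replicate 3, beside -0.03 over all tested genes in both cases. No gene lay near the median of -0.62. *Cd74* and the class II chains were at -1.31 to -1.08, and the class I genes with *Tapbp* at -0.16 to 0.28. From *Tapbp* to *H2-D1*, the stretch of the major histocompatibility complex at chr17:34052844-35404444 (NCBIM37) held 76 tested genes. In the fit of all 6 libraries 2 of them were called higher and 4 lower, beside 4.59% and 3.18% of all tested genes. Their median log2 fold change was 0.0082. Counts for this stretch without dox-treated replicate 3 are not given. *H2-Oa* was among the higher genes and *H2-Ab1* and *H2-DMb2* among the lower ones. The *H2-DMb2* call supports no direction, since that gene was tested through its untreated libraries alone.

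**Figure D5:**
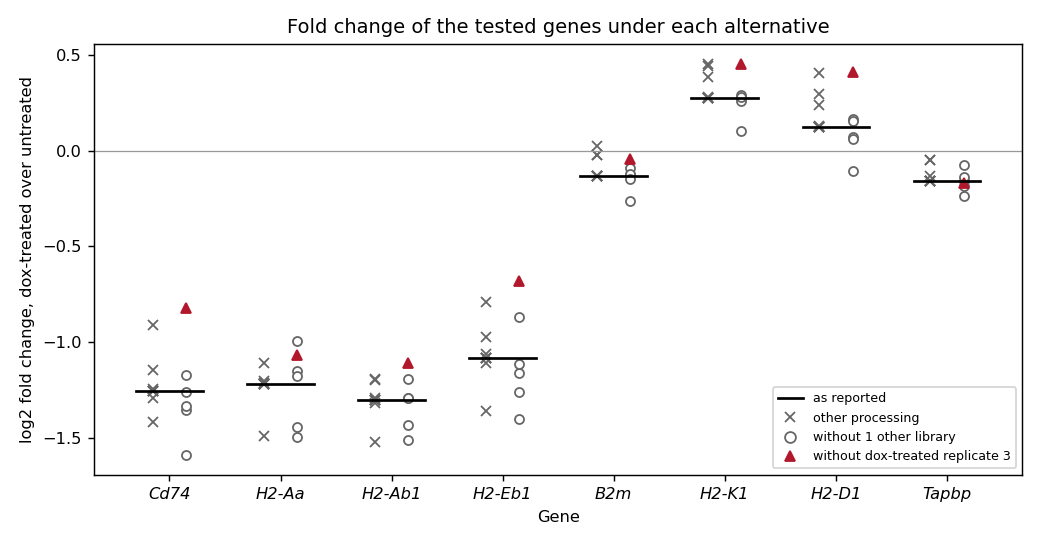
Log2 fold change of the 8 tested genes other than *Aire* under each of 15 alternatives, with a black bar for the value reported, crosses for other processing, open circles for leaving out 1 library and a red triangle for leaving out dox-treated replicate 3. *Cd74*, *H2-Aa*, *H2-Ab1* and *H2-Eb1* stay below 0 under all 15, while *B2m* and *H2-D1* cross 0.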

How the data were processed

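RNA was prepared from sorted adult MEPs in 3 libraries per group, and libraries were made with a NEBNext Ultra RNA kit and sequenced on a GAIIx instrument. According to the study's methods and processing notes, the authors trimmed adapters with Cutadapt, quantified genes with RSEM on the Ensembl transcriptome of mouse NCBIM37 (mm9) and compared groups with limma. RSEM shares reads between similar transcripts by estimation, so genes with close copies are less certain. The filter on low genes, the normalization method and the use of strand are not given in the sources used here. The deposited values are log2 CPM with 0.5 reads added and a normalized library size as the scale, as found from the values themselves, and whole reads were recovered from them for all genes. CPM here is the recovered reads on that scale.

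Groups came from the sample titles. The deposited log2 values were fitted with limma (version 3.58.1, R 4.3.3; lmFit, then eBayes) for the 12088 genes that reached 1 CPM in 3 or more libraries. P-values were adjusted over all of these by the Benjamini-Hochberg method, and a gene was called at an adjusted p under 0.05. Values without a p-value are mean ± SD of CPM over 3 libraries. Exact two-sided permutation tests over 3 against 3 libraries cannot go below p = 0.1. Intervals and the floor of 3 reads cover spread and counting error only. The limma fit was also run on simulated counts with known changes, the outcome of which is not reported here. The recovered reads entered a voom fit as an alternative, and no negative binomial model was fitted.

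Gene names came from the NCBIM37 annotation (12067 of 12101 identifiers matched). Promoters came from the RefSeq table on GRCm38.p6, which gave an entry for 7 of the 10 genes used here. *Ciita*, *H2-Ab1* and *Cd74* were not used. Named are the 10 genes, *Nanog* as a check, in each pathway list the called genes and otherwise up to 5 with the smallest p, up to 4 markers per cell type listed first, and the 5 genes with the highest r. Some genes that this rule takes are not reported here. Other genes named were chosen after their values were seen. The genes and lists were chosen with earlier results of these data known. Alternatives were another pseudocount, filters, a variance trend, weights, library sizes, quantile normalization, a replicate block and each library left out.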

Additional observations from a re-analysis of the deposited data

How the results depend on the processing

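Counts of calls below are higher then lower, for all genes, for the 8 tested genes other than *Aire*, for the class II list, for the class I list and for the other 4 lists together, and as reported they were 555 and 384, 0 and 1, 1 and 2, 0 and 1, and 0 and 1. They were 2515 and 2601, 1 and 3, 4 and 5, 10 and 5, and 13 and 8 with array quality weights, which weight each library by its own spread. They were 909 and 747, 0 and 2, 1 and 3, 0 and 3, and 1 and 3 with a mean-variance trend. With a mean of at least 5 CPM as the filter (669 and 437 over all genes), 2 of the 8 genes and 3 class I genes were lower and 1 gene of the other lists higher. Quantile normalization (648 and 537 over all genes) gave 4 of the 8 genes, 5 class II and 2 class I genes lower, and voom weights (615 and 570) gave 3 class I genes lower. Library sizes from the reads on listed genes shifted the median of all genes by 0.11 on the log2 scale and gave 631 and 286 calls over all genes and 0 of the 8 genes, 1 class II and 0 class I genes lower. *Cd74*, *H2-Aa*, *H2-Ab1* and *H2-Eb1* stayed lower and *H2-Oa* higher under all 15 alternatives.

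With 1 library left out, the counts ran from 92 to 1801 higher and 36 to 1687 lower for all genes, 0 to 2 lower for the 8 genes, 0 to 4 and 0 to 4 for class II, 0 to 7 and 0 to 4 for class I, and 0 to 9 and 0 to 5 for the other lists. The highest of each came without dox-treated replicate 3. The causes were not tested.

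The replicate numbers shared by the groups did not pair the libraries, since the deviations of same-numbered libraries correlated at 0.018, -0.121 and -0.299. A replicate block, whose meaning is therefore unclear, gave 53 and 29 calls over all genes, 0 and 0 for the 8 genes, for class II and for class I, and 0 and 1 for the other lists. *H2-Ab1* then had an adjusted p of 0.117, *H2-Oa* of 0.118 and *Calr* of 0.176 (limma). With 1 read worth up to 0.0910 CPM, *Ciita*, *H2-DMb2* and untreated *Aire* are limited by depth.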
